A study of Mus musculus with 55 samples.

Results

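The uncrushed eye of mice with a crushed optic nerve is the internal control of an optic nerve crush experiment, and its optic nerve head (ONH) was compared here with the ONH of mice that had no surgery. The comparison used the 5 contralateral control samples collected 3 weeks after the crush and the 5 naïve control samples, 10 of the 55 samples of the series, chosen by their labels and not by any measured value. All mice were C57Bl/6 females, an inbred strain, and the operated mice were 6 to 8 weeks old at surgery. In the 3-week contralateral group the left optic nerve had been crushed for 10 s at 1 mm behind the globe and the right ONH was taken, while the naïve group had no operation on either eye. Each sample pooled 2 ONHs, so that 5 replicates stand for 10 mice, and amplified RNA was hybridised to the Affymetrix Mouse Genome 430A 2.0 array, which gives 1 intensity for each probe set. All 10 arrays were processed in the same batch, together with the contralateral groups at 1 day, 3 days and 1 week (15 arrays, called the earlier contralateral ONHs below) that entered the same model. The sources used here do not give the age of the naïve mice when their ONHs were collected. Age, side of the body, anaesthesia, recovery time and an injury to the fellow nerve therefore cannot be told apart in this comparison.

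The ONH is the place where the axons of the retinal ganglion cells gather and leave the eye. In the mouse it holds no cell bodies of ganglion cells, but astrocytes in a tube-like array, microglia, capillaries with their basement membranes and, behind a transition zone, the first oligodendrocytes, which wrap the axons in myelin. Most neuronal mRNA stays in the cell body in the retina, and a smaller part is carried into axons, while glial and vascular mRNA is made on site. In bulk tissue such as this, fewer cells of a type and less RNA per cell cannot be told apart.

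The defining markers of the tissue were bright on all 10 arrays. The astrocyte filament Gfap ranged from 7946 to 9622 in 3-week contralateral ONHs and from 8331 to 10414 in naïve ONHs, and the astrocyte water channel Aqp4 from 7341 to 8653 and from 6848 to 8388. The myelin gene Mbp ranged from 10991 to 14563 and from 10823 to 14473, and the microglial receptor Csf1r from 3186 to 4010 and from 3371 to 4448, again with the contralateral arrays given first. Median intensities were alike, 467 to 496 on the contralateral and 460 to 510.4 on the naïve arrays, and 17894 to 18287 against 17709 to 17911 of 22626 probe sets reached an intensity of 50. Retina carried along in the dissection differed within both groups. The mean log2 intensity of 28 photoreceptor markers ran from 6.21 to 11.07 in 3-week contralateral and from 6.38 to 11.81 in naïve ONHs (exact two-sided permutation test, p = 0.762, adjusted over 7 lists of neighbouring tissue 0.762). Skeletal muscle markers were higher in the contralateral group (6.03 to 8.00 against 5.90 to 6.11, exact permutation p = 0.0476, adjusted p = 0.333), with replicate 2 at 8.00 and the other 4 at no more than 6.40, and lens crystallins stood at 7.18 in contralateral replicate 1 against 5.85 to 6.42 on naïve arrays.

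Some arrays did not sit with their labels. In a principal component analysis of the 25 naïve and contralateral arrays, the first component (28.8% of the variance) spread arrays within every group. The second (18.0%) placed the 5 contralateral arrays at 3 weeks between 13.6 and 39.5 and naïve replicates 1 to 4 between -21.0 and -8.87. Naïve replicate 5, however, had the score 41.6, higher than that of any contralateral array, and replicate 5 of the 1-week contralateral group had 29.6, whereas the other 14 earlier contralateral arrays lay at or below -2.72. Over all probe sets tested naïve replicate 5 correlated more closely with the 3-week contralateral arrays (median r = 0.980) than with the other naïve arrays (median r = 0.968). The labels give no reason for this, and what set the arrays apart was not tested. One value of the array maker's controls divided the 10 arrays of the comparison as this component did: the log2 ratio of the 3′ to the 5′ probe set of pyruvate carboxylase was 2.61 to 3.60 in 3-week contralateral ONHs and 3.86 to 4.14 in naïve replicates 1 to 4, with 3.04 in naïve replicate 5. The ratio was 3.37 in 1-week contralateral replicate 5. It was also low in 1-week replicate 4 (3.14) and 1-day replicate 3 (3.58), whose scores were -9.49 and -11.3. The same ratio for Gapdh was 0.50 to 0.59 in 3-week contralateral against 0.41 to 0.52 in naïve ONHs. The part of this ratio in the results was not tested. Because of these arrays, the main results are given with and without naïve replicate 5.

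**Figure D1:**
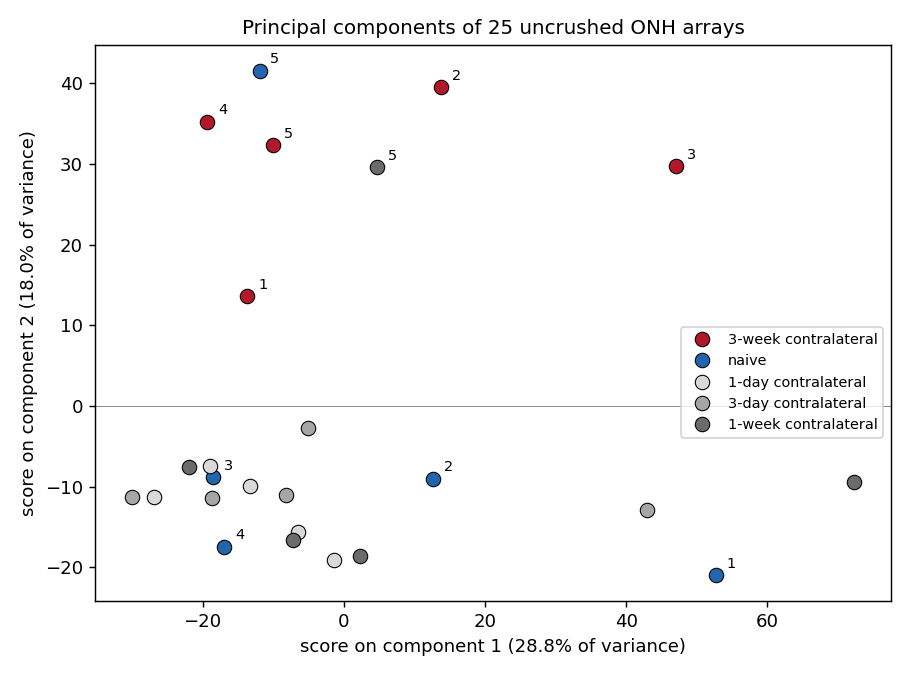
Scores of the 25 uncrushed ONH arrays on the first (horizontal) and second (vertical) principal component of log2 intensity, coloured by group; numbers are replicates of the 3-week contralateral and naïve groups and of the 1-week array that stands apart. Naïve replicate 5 (41.6) and 1-week contralateral replicate 5 (29.6) lie among the 3-week contralateral arrays on the vertical axis, and the other 18 arrays of the naïve and earlier contralateral groups lie below 0.

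Across the array, 129 of 18669 probe sets tested (0.691%) were called between 3-week contralateral and naïve ONHs, meaning a Benjamini-Hochberg adjusted p under 0.05 and a change of 2-fold or more, 60 higher (0.321%) and 69 lower (0.37%) in contralateral ONHs. At the adjusted p alone the count was 1892 (10.1%), with 787 higher (4.22%) and 1105 lower (5.92%) (limma, all 25 arrays in the fit). The size of this count rested on which arrays set the spread and on naïve replicate 5. When the fit held only the 10 arrays of the comparison, 4 probe sets passed both thresholds (1 higher, 3 lower) and 8 the adjusted p, with 4210 at an unadjusted p under 0.05 of 18029. The 3 lower ones were Cntnap1, the ribosomal protein gene Rps10 and a probe set that does not name 1 gene. Rps10, named after its values were seen, had the smallest adjusted p of these 3 (0.0058). Without naïve replicate 5 the 25-array design gave 282, of which 115 were among the 129. Quantile normalization moved the split to 38 higher and 86 lower. The 2 groups did not overlap for 36 of the 60 higher and 25 of the 69 lower probe sets, beside 3.8% of all probe sets tested (2.47% higher and 1.33% lower), and 39 of the 69 lower ones overlapped through naïve replicate 5 alone. With 1 probe set for each gene, 71 of 10449 genes (0.679%) were called, 38 higher (0.364%) and 33 lower (0.316%), and 10.5% passed the adjusted p. The 2 groups did not overlap for 3.91% of genes (2.61% higher, 1.3% lower). Below, a gene is represented by its brightest probe set that names 1 gene, differences are log2 of contralateral over naïve intensity, each with its model standard error (SE; 5 arrays a group), and intensities are linear and given in the order of replicates 1 to 5. Shares of gene lists at the adjusted p are to be set beside 6.3% lower and 4.25% higher over all genes.

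Axon genes were among the most strongly lowered in 3-week contralateral ONHs. Of 37 tested genes of axons and ganglion cells, 9 were lower and 1 was higher at the adjusted p (24.3% and 2.70%, against 6.3% and 4.25% of all genes), 6 of the lower ones by at least 2-fold, and the median difference was -0.21 against -0.01 over all genes. Leaving out 1 array at a time gave 7 to 12 lower and 0 or 1 higher, and the fit of 10 arrays gave 1 lower. Sptbn4, Rph3a and Nefh were known from earlier results of these data when the list was chosen, so its share is a description. Sptbn4 encodes the spectrin that anchors sodium channels at nodes of Ranvier and axon initial segments. Its intensity was 721, 543, 578, 549 and 422 in contralateral ONHs, against 2191, 2219, 1870, 2919 and 632 in naïve ONHs. Naïve replicate 5 thus lay within the contralateral range and the other 4 naïve arrays far above it. The difference was -1.66 (SE 0.32, adjusted p = 0.0052) with all arrays and -2.03 (SE 0.26, adjusted p = 3.1e-05) without naïve replicate 5, while in the fit of 10 arrays the adjusted p was 0.070. Rph3a, rabphilin, binds the small GTPase Rab3 on secretory vesicles, and it had 98.6, 86.4, 98.2, 83.4 and 68.8 in contralateral against 405, 334, 373, 541 and 100.3 in naïve ONHs. It had the largest fall of any gene called, -1.83 (SE 0.32, adjusted p = 0.0036), and naïve replicate 5 missed the contralateral range by less than 2 units of intensity. The heavy neurofilament Nefh, a structural protein of large axons, had 685, 755, 945, 559 and 466 in contralateral against 2545, 2392, 1616, 3480 and 829 in naïve ONHs (-1.56, SE 0.31, adjusted p = 0.0058).

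Not all axon genes followed naïve replicate 5 in this way. Cntnap1 encodes Caspr, the axonal protein of the septate-like junctions beside each node, and was dim, with 45.9, 26.1, 24.9, 30.1 and 36.8 in contralateral against 101, 87.6, 91.7, 112 and 73.0 in naïve ONHs. All 5 contralateral values were below all 5 naïve ones, and Cntnap1 was the only axon gene past the threshold in the fit of 10 arrays (-1.53, SE 0.22, adjusted p = 0.037). In the earlier contralateral ONHs, however, Cntnap1 ran from 26.2 to 84.1, a range that overlapped the 3-week contralateral values. Since its 3-week contralateral values were close to the floor, a floor of 50 brought the difference from naïve ONHs to -0.88 and ended the 2-fold call. The kinesin heavy chain Kif5a, a motor of anterograde transport, had 225, 255, 304, 284 and 221 against 549, 719, 483, 971 and 382, again without overlap (-1.20, SE 0.22, adjusted p = 0.0038). Its relative Kif5c fell by 0.79 (SE 0.16, adjusted p = 0.0059). Kif1a, the motor of synaptic vesicle precursors, ranged from 223 to 508 in contralateral and from 936 to 1285 in naïve replicates 1 to 4, with 375 in naïve replicate 5 (-1.31, SE 0.26, adjusted p = 0.0059). The light and medium neurofilaments, named here after their values were seen, did not pass: Nefl had -1.33 (SE 0.47, adjusted p = 0.070) and Nefm -0.95 (SE 0.40, adjusted p = 0.12). Thy1, a surface glycoprotein of ganglion cells, had -0.38 (SE 0.30, adjusted p = 0.43), and the potassium channel Kcna1 of the juxtaparanode was higher by 0.46 (SE 0.14, adjusted p = 0.040). None of 23 synapse and vesicle genes passed in either direction, and their median difference was 0.00.

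**Figure D2:**
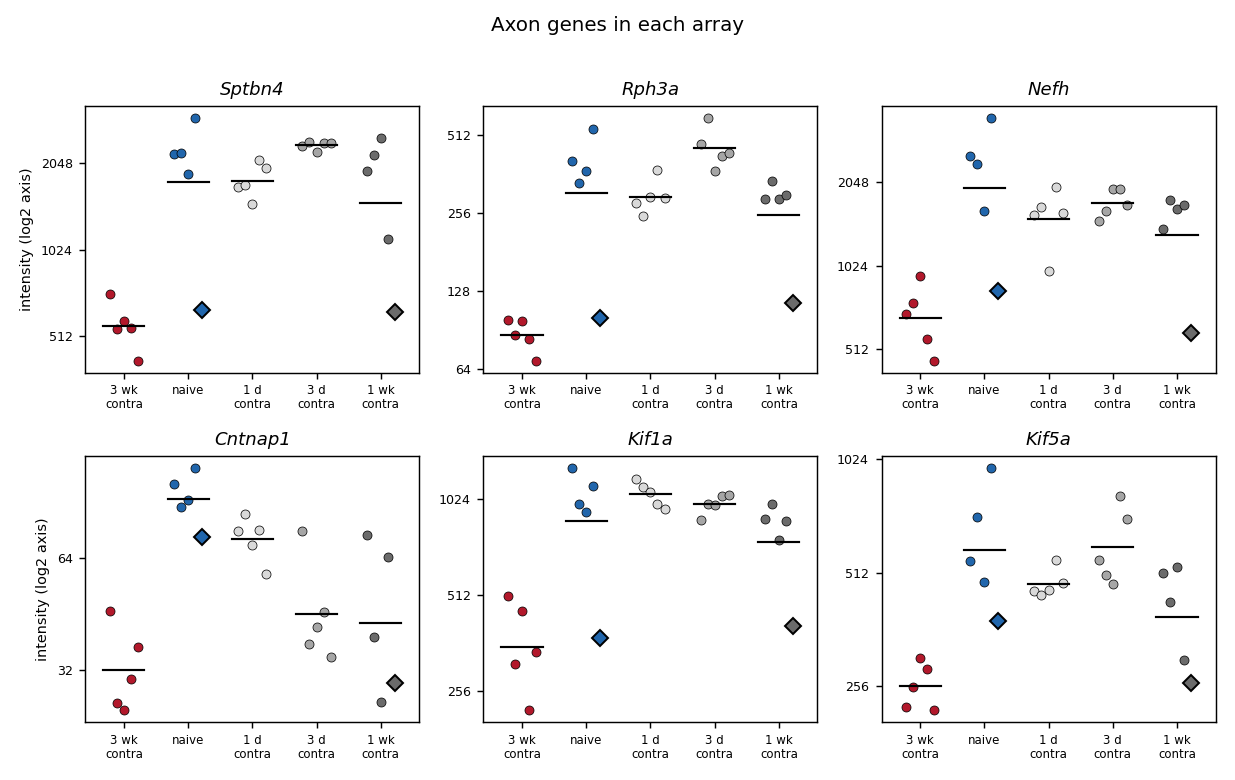
Intensity (log2 axis) of 6 axon genes in each array of the 3-week contralateral, naïve and earlier contralateral groups, with values under 20 drawn at 20; horizontal bars are means of log2 intensity over 5 arrays, and diamonds mark naïve replicate 5 and 1-week contralateral replicate 5. For Sptbn4, Nefh and Kif1a the diamonds lie in or near the range of the 3-week contralateral arrays, while for Cntnap1 and Kif5a naïve replicate 5 (73.0 and 382) lies above that range.

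The genes whose intensity followed that of Sptbn4 most closely over the 25 arrays were Rph3a (Pearson r = 0.965), Mapk8ip2 (0.961), a scaffold of the JNK kinase cascade, Ksr1 (0.951), a scaffold of the Ras-MAPK cascade, Scrib (0.949), a cell polarity protein, and Hivep1 (0.942), a zinc finger transcription factor. These coefficients are a description, and the arrays share the set of 7 that stands high on the second component. Hivep1 had 1670, 1617, 1634, 1304 and 1310 in contralateral against 3116, 3048, 2928, 2913 and 1616 in naïve ONHs (-0.82, SE 0.15, adjusted p = 0.0048). Scrib had -0.99 (SE 0.24, adjusted p = 0.015).

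Extracellular matrix genes that passed the test were all lower in contralateral ONHs. In basement membranes, type IV collagen forms the network to which laminins and the heparan sulfate proteoglycan perlecan attach. Of 78 extracellular matrix genes 25 were lower (32.1%) and 0 higher, with a median of -0.31. Leaving out 1 array at a time gave 10 (without naïve replicate 3) to 41 (without naïve replicate 5) lower and 0 higher, with 12 to 14 without naïve replicate 1, 2 or 4 or contralateral replicate 3 or 4, and the fit of 10 arrays gave 0 of either at the adjusted p. Col4a2, a chain of type IV collagen, had 1614, 1105, 911, 946 and 1116 in contralateral against 2982, 2674, 2969, 2904 and 945 in naïve ONHs. The 4 naïve arrays other than replicate 5 spanned only 2674 to 2982, all above the contralateral range. The difference was -1.05 (SE 0.26, adjusted p = 0.016), and the call was lost when any of naïve replicates 1 to 4 or contralateral replicates 3 or 4 was left out. Hspg2, perlecan, had 758, 691, 374, 491 and 608 against 1453, 1334, 1627, 1889 and 455 (-1.11, SE 0.28, adjusted p = 0.016), a call that was lost without contralateral replicate 3 or naïve replicate 3 or 4. Without naïve replicate 5 the differences were -1.37 (SE 0.20) for Col4a2 and -1.46 (SE 0.20) for Hspg2. Col4a1 fell by 0.69 (SE 0.21, adjusted p = 0.035) and the laminin chain Lama5 by 0.91 (SE 0.20, adjusted p = 0.0095), both named after their values were seen. Tenascin C, Tnc, a matrix protein of the ONH and of wounds, had 1461, 1251, 1312, 1351 and 1160 in contralateral against 2250, 2617, 2171, 2835 and 1358 in naïve ONHs (-0.74, SE 0.15, adjusted p = 0.0066). The fibrillar collagen chain Col1a2 fell by 0.35 (SE 0.08, adjusted p = 0.0081) and the collagen-binding protein Sparc by 0.26 (SE 0.06, adjusted p = 0.0073). Among 21 proteases and inhibitors 4 were lower (19.0%, against 6.3% of all genes) and 0 higher, including the membrane-bound metalloprotease Mmp14, whose groups did not overlap (847 to 1006 against 1147 to 1755, -0.72, SE 0.14, adjusted p = 0.0059).

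Of 30 endothelial genes 7 were lower (23.3%) and 0 higher, with a median of -0.27. The count was 1 without contralateral replicate 4 or naïve replicate 1, 2 or 3, 2 or 3 without contralateral replicates 2, 3 or 5 or naïve replicate 4, 11 without naïve replicate 5, and 0 in the fit of 10 arrays. Flt4, the VEGF-C receptor VEGFR3, had 404, 156, 148, 102 and 188 in contralateral against 619, 438, 489, 690 and 214 in naïve ONHs. The ranges overlapped through contralateral replicate 1 and naïve replicate 5. The difference was -1.36 (SE 0.31, adjusted p = 0.012), and a further Flt4 probe set had -1.08 (SE 0.31, adjusted p = 0.031). The angiopoietin receptor Tek fell by 0.45 (SE 0.13, adjusted p = 0.034) and the related orphan receptor Tie1 by 0.76 (SE 0.23, adjusted p = 0.035). None of 24 pericyte and smooth muscle genes passed. Meningeal and scleral fibroblast genes, which share collagens and small proteoglycans with the matrix list, were lower in 6 of 34 cases and higher in 0, with 3 lower when contralateral replicate 3, 4 or 5 or any of naïve replicates 1 to 4 was left out, 3 under quantile normalization and 0 in the fit of 10 arrays. The junction protein Cgnl1, paracingulin, fell by 1.39 (SE 0.26, adjusted p = 0.0047), with 359 to 603 in contralateral, 1324 to 1737 in naïve replicates 1 to 4 and 518 in naïve replicate 5.

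Immediate early genes are transcribed within minutes of growth factor signals, activity or mechanical stress. Of 44 tested immediate early and stress genes 7 were lower in 3-week contralateral ONHs (15.9%) and 0 higher, with a median of -0.21. Leaving out 1 array at a time gave 6 to 12 lower (12 without contralateral replicate 1, 11 without naïve replicate 5) and 0 higher, and the fit of 10 arrays gave 1. The mean log2 level of the list in naïve replicate 5 (9.54) was the lowest of the naïve arrays (9.63 to 9.84 in the other 4) and lay within the contralateral range of 9.28 to 9.60, although for Jun, Ccn1 and Nr4a1 it lay above that range. Jun encodes a component of AP-1, a dimeric transcription factor. It had 4977, 3808, 4244, 4154 and 4540 in contralateral against 7406, 7382, 6917, 5780 and 5960 in naïve ONHs. The groups did not overlap, the difference was -0.62 (SE 0.09, adjusted p = 0.0010), and Jun passed in the fit of 10 arrays as well (SE 0.09, adjusted p = 0.037). Ccn1, also known as Cyr61, a matricellular protein, had 2449, 1220, 1248, 2041 and 1756 in contralateral against 3956, 5855, 4714, 3706 and 3168 in naïve ONHs. Its difference was -1.32 (SE 0.21, adjusted p = 0.0030) and -1.53 (SE 0.26, adjusted p = 0.0036) for a further probe set. The groups did not overlap for either probe set. The orphan nuclear receptor Nr4a1 had 136, 127, 152, 214 and 197 against 289, 548, 419, 360 and 273 (-1.17, SE 0.29, adjusted p = 0.016). The pseudokinase Trib1 fell by 0.76 (SE 0.12, adjusted p = 0.0029) and the stress gene Ier3 by 0.37 (SE 0.09, adjusted p = 0.014).

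**Figure D3:**
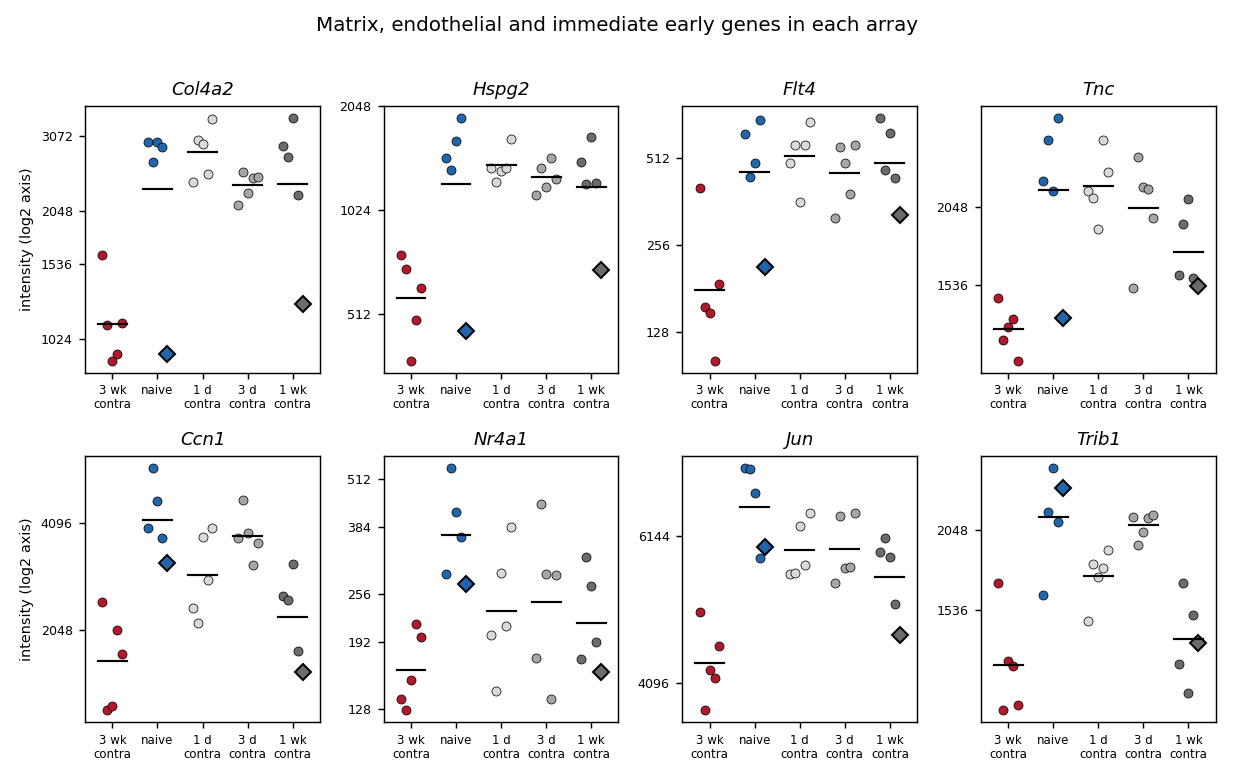
Intensity (log2 axis) of 4 matrix and endothelial genes (top row) and 4 immediate early genes (bottom row) in each array, with bars for the mean of log2 intensity over 5 arrays and diamonds for naïve replicate 5 and 1-week contralateral replicate 5. In the top row naïve replicate 5 lies near the 3-week contralateral arrays (945 for Col4a2), while in the bottom row it lies above them for Ccn1, Nr4a1, Jun and Trib1.

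Some chemokines were higher in contralateral ONHs. Of 43 chemokine and cytokine genes 4 were higher and 2 lower (9.30% and 4.65%, against 4.25% and 6.3% of all genes). The number higher was 2 without contralateral replicate 2, 4 or 5 or naïve replicate 1, 2 or 4, 7 without contralateral replicate 1 or naïve replicate 5, and 1 in the fit of 10 arrays. Ccl2, the monocyte attractant MCP-1, had 226, 1197, 598, 1046 and 1356 in contralateral against 173, 296, 195, 173 and 189 in naïve ONHs. Contralateral replicate 1 lay within the naïve range, and the other 4 lay at 598 or above. The difference of 1.89 (SE 0.59, adjusted p = 0.042) held only without contralateral replicate 1 or naïve replicate 5 when single arrays were left out, and each of the other 8 omissions ended its call, with an adjusted p of up to 0.106. Over the 25 arrays Ccl2 was matched most closely by its neighbour in the same chemokine cluster, Ccl7 (r = 0.959), followed by the inflammatory caspase Casp4 (0.839). Ccl7 had 94.3, 434, 247, 358 and 503 against 80.6, 197, 128, 136 and 74.3 (1.29, SE 0.50, adjusted p = 0.092). In contrast, the values of Ccl25, a chemokine of thymus and gut, were tight, with 952, 1189, 1145, 1132 and 1080 in contralateral against 677, 642, 680, 705 and 775 in naïve ONHs. Ccl25 differed by 0.66 (SE 0.09, adjusted p = 0.0010) without overlap and passed in the fit of 10 arrays (adjusted p = 0.037). Ccl9 rose by 0.68 (SE 0.16, adjusted p = 0.014), and the membrane-tethered chemokine of neurons Cx3cl1 fell by 0.54 (SE 0.15, adjusted p = 0.024). The fall was not seen with a further Cx3cl1 probe set, which had 0.03 (SE 0.25, adjusted p = 0.95).

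Interferon-stimulated genes are switched on through the transcription factor complex ISGF3 and interferon regulatory factors, which bind a repeat of GAAA known as the interferon-stimulated response element. The motif GAAA, any 2 bases, GAAA was searched on both strands in the 250 bases before the starts of genes in RefSeq promoters (GRCm38.p6), where overlapping matches counted once for each gene. It was found for 14 of the 36 interferon-stimulated genes tested that had a promoter entry (38.9%), against 3.38% of all genes tested with an entry and 2.98% of all promoters. A match is only a description of the letters. Windows of 30 bases that end before the start are shown for 2 genes described next and for Oas3 and Ifit1, whose differences of 0.86 (SE 0.74, adjusted p = 0.48) and 0.35 (SE 0.27, adjusted p = 0.42) did not pass, 5′ to 3′ on the strand of the gene, with the match in capitals (TTTC, any 2 bases, TTTC is the same motif on the other strand).
Rsad2 (chr12:26456553-26456582, minus strand): ctggtccaacTTTCATTTTCagaaaacaga
Cxcl10 (chr5:92349083-92349112, minus strand): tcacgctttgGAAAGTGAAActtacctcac
Oas3 (chr5:120777715-120777744, minus strand): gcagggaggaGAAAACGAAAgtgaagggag
Ifit1 (chr19:34640775-34640804, plus strand): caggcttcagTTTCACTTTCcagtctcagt

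Of the 47 interferon-stimulated genes tested 1 was higher (2.13%, against 4.25% of all genes) and 0 lower at the adjusted p. The median of the list was 0.29 against naïve and 0.01 against the earlier contralateral ONHs. The number higher was 5 without contralateral replicate 1, 2 without naïve replicate 5 and 0 in the fit of 10 arrays. The 1 gene was Ifi204, a DNA sensor of the p200 family, with 317, 220, 446, 203 and 281 in contralateral against 157, 108, 149, 100.5 and 160 in naïve ONHs (1.09, SE 0.27, adjusted p = 0.017). Its groups did not overlap, but its call was lost without contralateral replicate 3 or naïve replicate 4. Rsad2, viperin, an antiviral enzyme, had 1531, 3024, 5603, 2321 and 6146 against 1887, 1419, 1528, 1184 and 1635. Contralateral replicates 3 and 5 were far above the naïve arrays and replicate 1 was within them. The difference of its brightest probe set was 1.11 (SE 0.49, adjusted p = 0.14), and that of a dimmer one, with 79.0, 144, 567, 161 and 627 against 36.0, 36.7, 40.8, 38.7 and 58.3, was 2.48 (SE 0.64, adjusted p = 0.019). The same replicates 3 and 5 were highest for Oasl1, an antiviral 2′-5′ oligoadenylate synthetase-like protein, with 74.9, 181, 482, 150.1 and 541 against 61.8, 64.1, 78.5, 47.4 and 60.5 (1.84, SE 0.65, adjusted p = 0.066), and for the chemokine Cxcl10, with 4005, 5106, 8301, 5675 and 7484 against 3528, 2438, 4239, 1397 and 3753 (1.05, SE 0.39, adjusted p = 0.083). Ms4a4c, a membrane-spanning 4A gene of leukocytes, had 304, 320, 534, 628 and 569 in contralateral against 136, 180, 162, 166 and 298 in naïve ONHs (1.31, SE 0.38, adjusted p = 0.032). Its groups did not overlap, but its call was lost without contralateral replicate 3, 4 or 5 or any of naïve replicates 1 to 4, with an adjusted p of up to 0.092, and its probe set can take up signal of the near-identical genes of its cluster. Levels of these genes also varied between arrays of the earlier contralateral groups, where Rsad2 ranged from 755 to 6722 and Ccl2 from 111 to 1965.

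**Figure D4:**
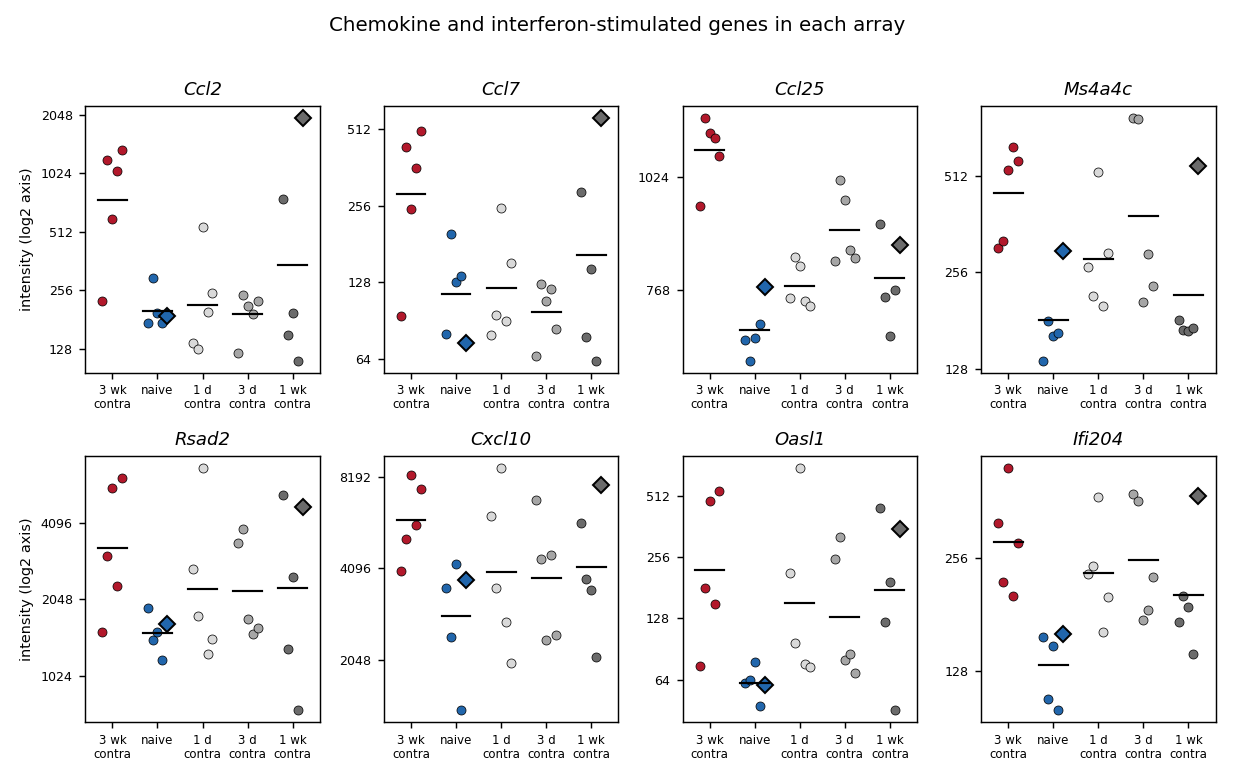
Intensity (log2 axis) of chemokine and interferon-stimulated genes in each array, with bars for the mean of log2 intensity over 5 arrays and diamonds for naïve replicate 5 and 1-week contralateral replicate 5. Naïve arrays are close together for Ccl2, Rsad2 and Oasl1, 3-week contralateral arrays spread widely (226 to 1356 for Ccl2), and Ccl25 separates the 2 groups with little spread.

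Of 38 microglia and macrophage genes 3 were higher and 1 lower (7.89% and 2.63%, against 4.25% and 6.3% of all genes), with a median of 0.06. With 1 array left out 0 to 5 were higher (0 without naïve replicate 1, 1 without contralateral replicate 2, 4 or 5 or naïve replicate 2 or 4, 5 without naïve replicate 5). The purinergic receptor relative Gpr34 rose by 0.65 (SE 0.16, adjusted p = 0.015), with 1108 to 1425 in contralateral and 628 to 1288 in naïve ONHs, and the lysosomal glycoprotein Cd68 fell by 0.44 (SE 0.14, adjusted p = 0.039). Aif1 (Iba1) had 0.57 (SE 0.20, adjusted p = 0.064). Chil3, a lectin of alternatively activated macrophages, was dim, with 94.7, 117, 153, 149 and 70.8 against 67.6, 26.5, 61.6, 56.0 and 28.8 (1.33, SE 0.41, adjusted p = 0.040). Its call was lost when any of 8 arrays was left out. Among 37 astrocyte genes 5 were lower (13.5%, against 6.3% of all genes) and 0 higher. None passed without contralateral replicate 4 or naïve replicate 1, 2 or 3 or in the fit of 10 arrays, 1 passed without contralateral replicate 2 or 5, and 10 and 11 were lower without contralateral replicate 1 and naïve replicate 5. The gap junction gene Gja1 fell by 0.21 (SE 0.06, adjusted p = 0.041), the glial transcription factor Sox9 by 0.25 (SE 0.07, adjusted p = 0.022) and the secreted chaperone Clu by 0.28 (SE 0.07, adjusted p = 0.020). Gfap itself had -0.18 (SE 0.07, adjusted p = 0.073). MHC class II genes had 0 of 8 past the threshold, and of 13 MHC class I genes 1 was lower.

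Some oligodendrocyte and lipid genes were higher than in naïve ONHs. Of 26 oligodendrocyte genes 4 were higher (15.4%, against 4.25% of all genes) and 1 lower. The number higher was 1 without contralateral replicate 4 or 5, 2 without contralateral replicate 2 or naïve replicate 1, 3 or 4, 7 without naïve replicate 5 and under quantile normalization, and 0 in the fit of 10 arrays. Gal3st1, which makes the myelin lipid sulfatide, had 419, 461, 458, 777 and 706 in contralateral against 258, 384, 324, 266 and 303 in naïve ONHs, without overlap (0.85, SE 0.20, adjusted p = 0.013). The late myelin protein Mog had 6712 to 7985 against 5286 to 6157, also without overlap (0.31, SE 0.08, adjusted p = 0.018). Aspa, aspartoacylase, rose by 0.46 (SE 0.14, adjusted p = 0.038). Mbp did not pass by its brightest probe set (-0.07, SE 0.07, adjusted p = 0.56), although 1 of its 7 dimmer probe sets was called, with a mean of 1005 in contralateral and 464 in naïve ONHs (1.09, SE 0.31, adjusted p = 0.027). Of 19 cholesterol synthesis genes 4 were higher (21.1%) and 0 lower, and of 55 oxidative phosphorylation genes 8 were higher (14.5%) and 1 lower, against 4.25% of all genes higher. For cholesterol synthesis 1 was higher without contralateral replicate 4 or 5 or naïve replicate 1 or 3, and 2 without naïve replicate 2 or 4. For oxidative phosphorylation the number higher ran from 3, without contralateral replicate 4, to 12, without contralateral replicate 1, and was 16 under quantile normalization. In the fit of 10 arrays both lists had 0. Idi1, the isoprenoid isomerase, rose by 0.46 (SE 0.11, adjusted p = 0.012), Tm7sf2, a sterol reductase, by 0.42 (SE 0.11, adjusted p = 0.017), and cytochrome c, Cycs, by 0.32 (SE 0.08, adjusted p = 0.016). Further Cycs probe sets had 0.18 (SE 0.08, adjusted p = 0.15) and 0.14 (SE 0.07, adjusted p = 0.17) and did not pass. Xbp1, a transcription factor of the unfolded protein response, had 3989 to 4425 in contralateral and 3037 to 3522 in naïve ONHs (0.36, SE 0.06, adjusted p = 0.0038).

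**Figure D5:**
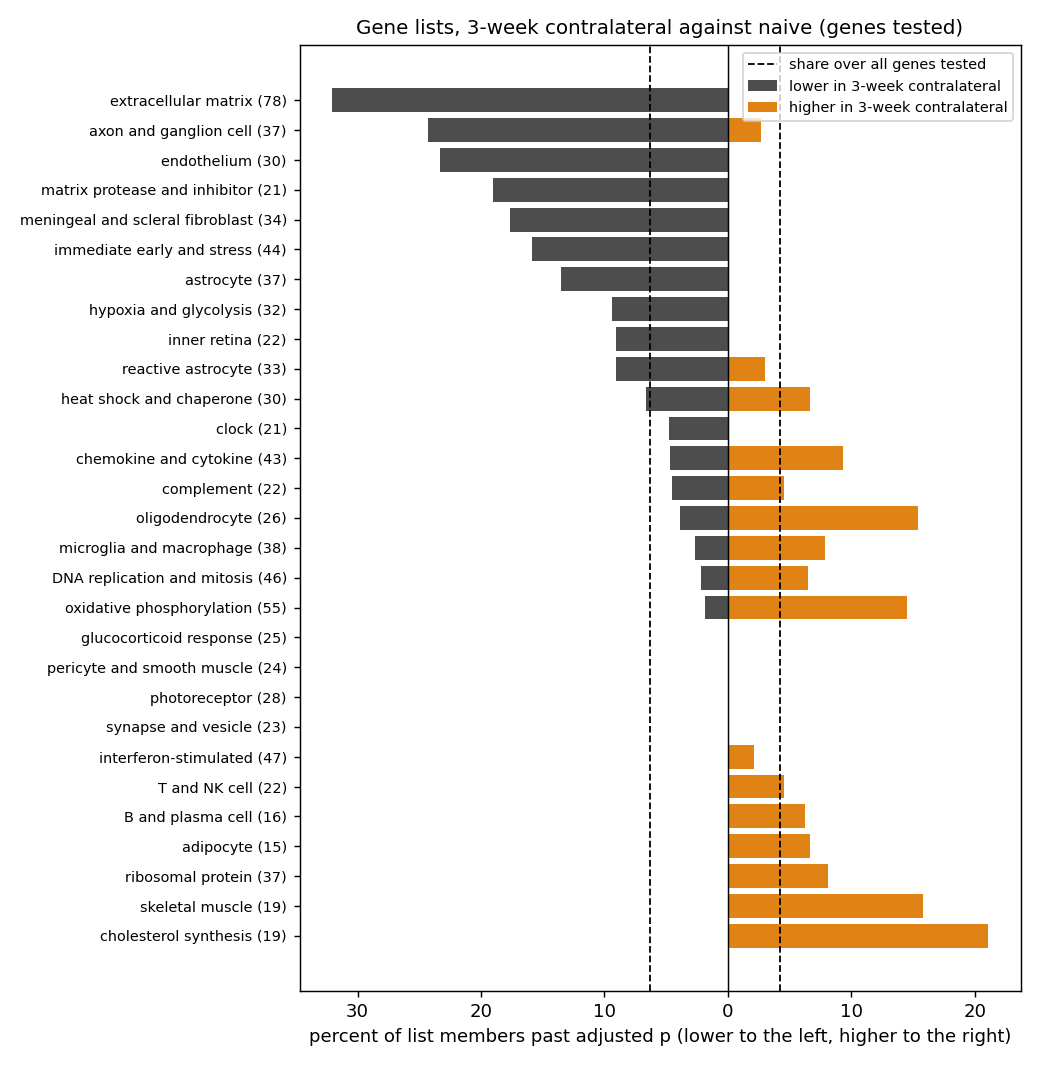
Percent of the tested members of each gene list with at least 15 tested genes (number in parentheses) that passed an adjusted p under 0.05, lower in 3-week contralateral ONHs to the left and higher to the right, with dashed lines at the share over all 10449 genes (6.3% lower, 4.25% higher). The longest bars to the left are extracellular matrix (32.1%), axon and ganglion cell (24.3%) and endothelium (23.3%). The longest to the right is cholesterol synthesis (21.1%). The lists were chosen with earlier results of these data known, so the shares are a description.

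Many of the other called genes were dim, as 36 of the 60 higher and 23 of the 69 lower probe sets stayed under 200 on all 10 arrays. The tooth enamel gene Amelx had 62.6, 67.4, 64.2, 64.3 and 63.5 in contralateral against 8.47, 6.34, 7.01, 22.3 and 12.8 in naïve ONHs. It was the only higher gene past both thresholds in the fit of 10 arrays (1.66, SE 0.18, adjusted p = 0.0058), and since 4 of the 5 naïve values lay under the floor of 20 the size of its difference depends on the floor (0.36 with a floor of 50). Amelx ranged from 11.9 to 78.5 in the earlier contralateral ONHs. A further Amelx probe set, too dim to be tested, overlapped, with 20.2 to 51.9 in contralateral and 24.75 to 42.0 in naïve ONHs. Nle1, a factor of ribosome assembly, had 217, 275, 212, 271 and 189 against 77.2, 74.9, 62.0, 179 and 99.5 (1.33, SE 0.23, adjusted p = 0.0036), and the hedgehog inhibitor Hhip had 426, 264, 287, 283 and 323 against 82.7, 126, 148, 48.1 and 249 (1.46, SE 0.27, adjusted p = 0.0048), both without overlap. Alpha-fetoprotein, Afp, was called by 1 probe set (1.43, SE 0.29, adjusted p = 0.0059) and another had 0.24 (SE 0.37, adjusted p = 0.72). Myoglobin, Mb, was called higher, but 4 of its 5 naïve values lay under the floor of 20, and its difference of 1.62 (SE 0.41, adjusted p = 0.018) was 0.57 with a floor of 50 (adjusted p = 0.15). It had 228 in contralateral replicate 2 and 31.0 to 66.3 in the other contralateral ONHs against 9.79 to 22.2 in naïve ONHs. Fast muscle troponin Tnni2 had 1970 in the same replicate and 183 to 389 in the other 4 contralateral ONHs. Of 19 skeletal muscle genes 3 were higher (15.8%, against 4.25% of all genes) and 0 lower, 1 was higher without contralateral replicate 2, 4 or 5 or naïve replicate 1, 3 or 4, 2 without naïve replicate 2, and the level of the whole list by array is given above. Rasgrf1, a Ras exchange factor of neurons, fell by 1.47 (SE 0.41, adjusted p = 0.026). Its call was lost without contralateral replicate 4, where the difference was -0.96, or without naïve replicate 1, 3 or 4, with an adjusted p of up to 0.079, and a further Rasgrf1 probe set had -0.17 (adjusted p = 0.59). The mitotic kinesin Kif4 had 78.5 to 154 in contralateral against 177 to 694 in naïve ONHs (-1.63, SE 0.34, adjusted p = 0.0071).

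The 3-week contralateral arrays were next set against the 15 earlier contralateral arrays, a comparison that uses no naïve array but shares the 5 arrays at 3 weeks. In all, 95 probe sets were called (0.509%), 15 higher (0.0803%) and 80 lower (0.429%), and 4958 passed the adjusted p alone (26.6%), 1730 higher (9.27%) and 3228 lower (17.3%). Quantile normalization turned that last split to 2400 higher and 2545 lower. At the level of genes 10 were called higher (0.0957%) and 45 lower (0.431%), and 26.7% passed the adjusted p (7.35% higher, 19.4% lower). Naïve ONHs against the earlier contralateral ONHs gave 0 called probe sets and 2 at the adjusted p (0.0107%, both lower in naïve ONHs), with 1554 at an unadjusted p under 0.05 (limma). Sptbn4 had -1.73 (SE 0.26, adjusted p = 2.6e-04) against the earlier contralateral ONHs, whose values ran from 623, in 1-week replicate 5, to 2496. Rph3a had -1.91 (SE 0.26, adjusted p = 2.1e-04), Nefh -1.19 (SE 0.25, adjusted p = 0.0018), Col4a2 -1.17 (SE 0.21, adjusted p = 6.9e-04) and Flt4 -1.46 (SE 0.26, adjusted p = 5.4e-04). For Jun the difference was -0.41 (SE 0.07, adjusted p = 4.8e-04) and for Ccn1 -0.79 (SE 0.18, adjusted p = 0.0026). Nr4a1, with -0.50 (SE 0.24, adjusted p = 0.12), did not pass, nor did Ifi204 with 0.30 (SE 0.22, adjusted p = 0.34), Ms4a4c with 0.65 (SE 0.31, adjusted p = 0.12) or Mog with 0.06 (SE 0.07, adjusted p = 0.53). Counts by list are to be set beside 7.35% higher and 19.4% lower over all genes in this comparison. Of 78 extracellular matrix genes 0 were higher and 45 lower, and of 37 axon genes 2 were higher and 14 lower. Of 26 oligodendrocyte genes 2 were higher and 4 lower, and of 19 cholesterol synthesis genes 1 was higher and 1 lower. Among 38 microglia and macrophage genes 1 was higher and 11 lower. Against naïve ONHs 3 of them were higher and 1 lower, where 4.25% of all genes were higher and 6.3% lower. By single times, 279 probe sets were called against 1 day, 171 against 3 days and 69 against 1 week. In fits of the 10 arrays of each contrast these counts were 229, 163 and 3, in the same order. Ccl25 was higher at 3 weeks than at each of them, by 0.50 (SE 0.09, adjusted p = 8.7e-04), 0.29 (SE 0.09, adjusted p = 0.027) and 0.47 (SE 0.09, adjusted p = 0.0066) in the order of time.

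The values of the crushed ONHs at 3 weeks are set beside those of the contralateral ONHs without a test. Sptbn4 ranged from 5.16 to 18.5 in crushed against 422 to 721 in contralateral ONHs, Nefh from 6.32 to 39.7 against 466 to 945, and Kif5a from 41.3 to 63.5 against 221 to 304. Cntnap1 overlapped, with 31.0 to 53.2 in crushed and 24.9 to 45.9 in contralateral ONHs. Jun (3402 to 4912) and Ccn1 (1404 to 2851) in crushed ONHs overlapped the contralateral values.

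The methods of the study call a probe set by 3 criteria: a lower 90% bound of the fold change above 2, a difference in mean intensity above 100 and an unpaired test at p under 0.05. By these, computed again from the intensities, 9 probe sets differed between 3-week contralateral and naïve ONHs, higher for Ccl2, Ms4a4c, Oasl1 and Rsad2, and lower for Ccn1, Myh9, Nefh, Rph3a and Sptbn4. Myh9, the heavy chain of non-muscle myosin IIA, was named after its values were seen. Without naïve replicate 5 the number was 46, and after Benjamini-Hochberg adjustment of the unpaired test it was 0.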

How the data were processed

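ONH RNA, pooled from 2 ONHs for each sample, was amplified (NuGEN Ovation) and hybridised by the authors to Affymetrix arrays. The authors normalized the arrays to an invariant set in DChip and deposited PM/MM difference model values, which are intensities on a linear scale. Samples were grouped by their GEO labels. Intensities were floored at 20 and log2 transformed (9.87% of the values of the 10 arrays lay under the floor), 64 control probe sets were left out, and probe sets of at least 50 on at least 5 of 25 arrays were tested (18669 of 22626). Of the 22626 probe sets 20380 named 1 gene, 691 several and 1555 none, by the platform annotation. The 5 groups of batch 1 that were uncrushed entered 1 limma fit (limma 3.58.1, R 4.3.3) with Benjamini-Hochberg adjustment over all probe sets. Separate samples of pooled mice are biological replicates, and 5 for each group limit the precision. Levels of tissue lists were compared by exact permutation over samples (numpy 2.4.6). The code was tested on simulated data.

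Genes were named by rule: the 12 largest rises and falls among called genes, the called members and up to 4 members with the smallest p of each of 37 gene lists, the 2 brightest members of marker lists, 5 genes known from earlier results, and the 5 genes most like Sptbn4 and Ccl2. The members and lists were chosen with earlier results of these data known. Same-numbered samples of both groups were checked for pairing by the correlation of their deviations from group means (-0.202, 0.022, -0.564, 0.384 and 0.147), so that the numbers did not pair them. Other floors, filters, scalings, weights, covariates and array sets were tried as alternatives. Promoter windows came from RefSeq (GRCm38.p6).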

Additional observations from a re-analysis of the deposited data

Results flagged for a closer look

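Samples far from the other 4 of their group were sought in 78 sets of 5 values, by the gap of the extreme sample to its nearest neighbour as a share of the range; 17 sets exceeded the 95% critical value, where chance gives about 1 in 20. Naïve replicate 5 stood apart for the second principal component (0.806) and, as the lowest naïve array, for Col4a2 (0.905), Cgnl1 (0.776), Hspg2 (0.756), Kif1a (0.742) and Rph3a (0.713). Other naïve arrays stood apart for Ccl2 (0.782, replicate 2 high), Tex11 (0.775, replicate 2 low), Mb (1.0, replicate 1 high) and Amelx (1.0, replicate 4 high). For both Mb and Amelx the other naïve values were at the floor. Among 3-week contralateral arrays, replicate 5 was high for Myoz3 (1.0, with the other values at the floor) and replicate 4 low for Rasgrf1 (0.841). Among levels of tissue lists, lens crystallins were high in 3-week contralateral replicate 1 (0.918), skeletal muscle (0.808) and adipocyte markers (0.776) in 3-week contralateral replicate 2, adipocyte markers in naïve replicate 3 (0.793) and inner retina markers in naïve replicate 1 (0.783).

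The uncrushed ONHs also differed between times: 279 probe sets were called between 3-week and 1-day contralateral ONHs, 171 between 3 weeks and 3 days and 69 between 3 weeks and 1 week, each a direct limma contrast in the 25-array fit. In fits of 10 arrays these were 229, 163 and 3.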

How the results depend on the processing

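The number of probe sets called between 3-week contralateral and naïve ONHs (129, with 60 higher and 69 lower, and 1892 at the adjusted p) moved most with the arrays in the fit. The 10 arrays alone gave 4 called (1 higher, 3 lower) and 8 at the adjusted p, and 3 called against 1 week. Array weights gave 263 (143 higher, 120 lower), 5073 at the adjusted p and 174 against the earlier contralateral ONHs. A floor of 50 gave 75 (26 higher), a filter at an intensity of 100 gave 77 (28 higher), and quantile normalization gave 38 higher. Leaving out 1 array at a time gave 78 to 282 called (35 to 128 higher, 43 to 154 lower), 686 to 4204 at the adjusted p, and 83 to 191 against the earlier contralateral ONHs; the highest counts against naïve came without naïve replicate 5 and the lowest without 3-week contralateral replicate 4. Leaving out naïve replicate 5 and 1-week contralateral replicate 5 together, an alternative chosen after seeing the data, gave 285 (129 higher, 156 lower) and 4615 at the adjusted p. The study's criteria gave 9, with 18 when the bound used the smaller normal quantile of a one-sided limit, 0 after Benjamini-Hochberg adjustment and 3 to 46 with 1 array left out. The cause of these shifts was not tested. With the replicate number as a replicate block 131 were called and 1956 passed the adjusted p, and not every sample correlated best with its own number. No difference of the 31 genes followed through all settings was reversed.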
